A study of Mus musculus with 9 samples.

Results

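The subject is a panel of 46 nuclear genes that encode subunits of the oxidative phosphorylation machinery, measured in mouse retina under oxygen-induced retinopathy. The genes were listed by name: 19 were placed with complex I, 4 with complex II, 6 with complex III, 10 with complex IV and 7 with complex V. Ndufa4 was placed with complex I, as its name has it, although its protein is now assigned to complex IV. Each was matched by gene symbol or synonym to the probes of an Illumina bead array, and the most intense detected probe stood for the gene. All 46 had a probe, and 44 were among the 10948 genes with a tested probe, meaning a probe detected (detection p under 0.05) on all 3 arrays of 1 or more groups.

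The mice were C57BL/6N pups, with no genetic change named in the labels, and each array carried RNA of both retinas of 1 pup. The hypoxic P12.5 group was raised with the mothers in air enriched to 75% oxygen, beginning on postnatal day 7 and lasting 5 days, and had then breathed room air for 12 hours. The hyperoxic P12 group had the same 5 days of oxygen and was sampled at P12, without room air. The control P12 group consisted of normal mice of P12. Each group had 3 arrays, 9 in all. No normal mice of P12.5 were among the samples, so age and time in room air cannot be told apart in any comparison with P12.5.

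Oxidative phosphorylation takes place in the inner mitochondrial membrane. Complex I takes electrons from NADH and complex II from succinate, complex III passes them to cytochrome c, complex IV hands them to oxygen, and complex V (ATP synthase) uses the resulting proton gradient to make ATP. Most subunits are nuclear genes, and a small set is encoded by the mitochondrial genome. Photoreceptor inner segments are packed with mitochondria, and the retina is known for its high oxygen use. Low oxygen, through the factor HIF-1, is known to raise genes that divert pyruvate from mitochondria, such as Pdk1, and in cultured mammalian cells it is known to exchange the complex IV subunit COX4I1 for COX4I2.

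The arrays were not all alike. Hyperoxic 1 stood apart, with a median intensity of 163.6 (67.4 to 82.3 on the other 8 arrays), 30.6% of probes detected (42.1% to 44.5%) and a mean correlation of 0.960 with the other arrays (0.984 to 0.988). The ratios the authors deposited were formed over control 1, hyperoxic 2 and hyperoxic 3, whose median ratio was 1 at 100% of probes. The detection p columns beside control 2 and control 3 followed the intensities of hyperoxic 2 and hyperoxic 3. Those beside hyperoxic 1 and hyperoxic 2 followed control 2 and control 3. Both points put the labels of control 2, control 3, hyperoxic 2 and hyperoxic 3 in doubt, and a swap was not tested. The mean of all 6 P12 arrays does not depend on those labels, so hypoxic P12.5 against all 6 P12 arrays is the comparison given most room. The SE and p-values of that comparison do depend on them, since the spread was taken around the labelled group means. The choice of tested probes by detection used the labelled groups too. That comparison was not refitted with the P12 arrays regrouped. It was computed against the mean of the 2 P12 group means, so with a P12 array left out the difference depends on the labels too. Xist was high and Eif2s3y low on hypoxic 2, control 1 and control 3, a female pattern, and sex was not a term in the fits. Of the members, Ndufa1 and Cox7b are X-linked.

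The retinal label was checked against markers. Of 12 neural retina markers 8 were tested, among them the rod arrestin Sag, whose log2 intensity was 14.45 to 14.53 in hypoxic P12.5, 14.28 to 14.45 in hyperoxic P12 and 14.28 to 14.38 in control P12. Against all P12 arrays the 8 markers ranged from -0.45 to 0.61 with a median of -0.03, 4 positive and 0 called. Sag also counts among the rod markers, whose sum, given next, was lowest on the hypoxic arrays. The ganglion cell factor Pou4f1 was not among those tested. The summed level of 9 tested rod markers was 83112 to 87939 in hypoxic P12.5, 93949 to 104069 in hyperoxic P12 and 96455 to 103983 in control P12, so it was lowest on the hypoxic arrays. The summed level of 8 tested cone markers was 7732 to 7939 in hypoxic P12.5, 12254 to 13018 in hyperoxic P12 and 9435 to 11772 in control P12. The rod genes Gnat1 (log2 difference -0.50 ± 0.10 SE against all 6 P12 arrays) and Pde6b (-0.34 ± 0.08) and the cone genes Opn1mw (-0.78 ± 0.08), Arr3 (-1.94 ± 0.25) and Pde6h (-0.53 ± 0.12) fell, with limma adjusted p = 0.0289, 0.0473, 0.00238, 0.00492 and 0.0458. Over the 9 tested rod markers the median was -0.05 and 3 were positive, among them Cnga1 (0.41, adjusted p = 0.261). In whole tissue, fewer cells of a type and less RNA per cell cannot be told apart. The summed level of 12 tested lens crystallins was 2097 to 14630 in hypoxic P12.5, 725 to 7356 in hyperoxic P12 and 316 to 948 in control P12, with a median log2 difference of 1.78 and 0 of 12 called. Of 9 pigment epithelium markers Dct (-0.54 ± 0.12), Pmel (-0.58 ± 0.13) and Rdh5 (-0.51 ± 0.12) fell, with limma adjusted p = 0.0448, 0.0479 and 0.0490, and of 9 endothelial markers Slco1c1 did (-1.46 ± 0.28, adjusted p = 0.0271). Of 5 tested muscle and 2 tested erythroid markers 0 were called, and the muscle markers Ckm, Myh4 and Tnnt3 were not among the tested genes. Among all tested probes 3.83% were called against all 6 P12 arrays. The part of these markers in the results that follow was not tested.

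Across the panel the 3 groups lay close together. Each array was summarised by the median over the 44 members of the log2 intensity minus the gene's own mean over 9 arrays. This median was 0.01, -0.00 and -0.06 on the hypoxic P12.5 arrays, 0.20, -0.05 and -0.02 on the hyperoxic P12 arrays and -0.09, 0.02 and -0.00 on the control P12 arrays. The groups overlapped, and the value that stood out was that of hyperoxic 1, where 28 of the 44 members had their highest level. The SD of a member over the 3 arrays of a group had a median of 0.08 in hypoxic P12.5, 0.21 in hyperoxic P12 and 0.10 in control P12.

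**Figure D1:**
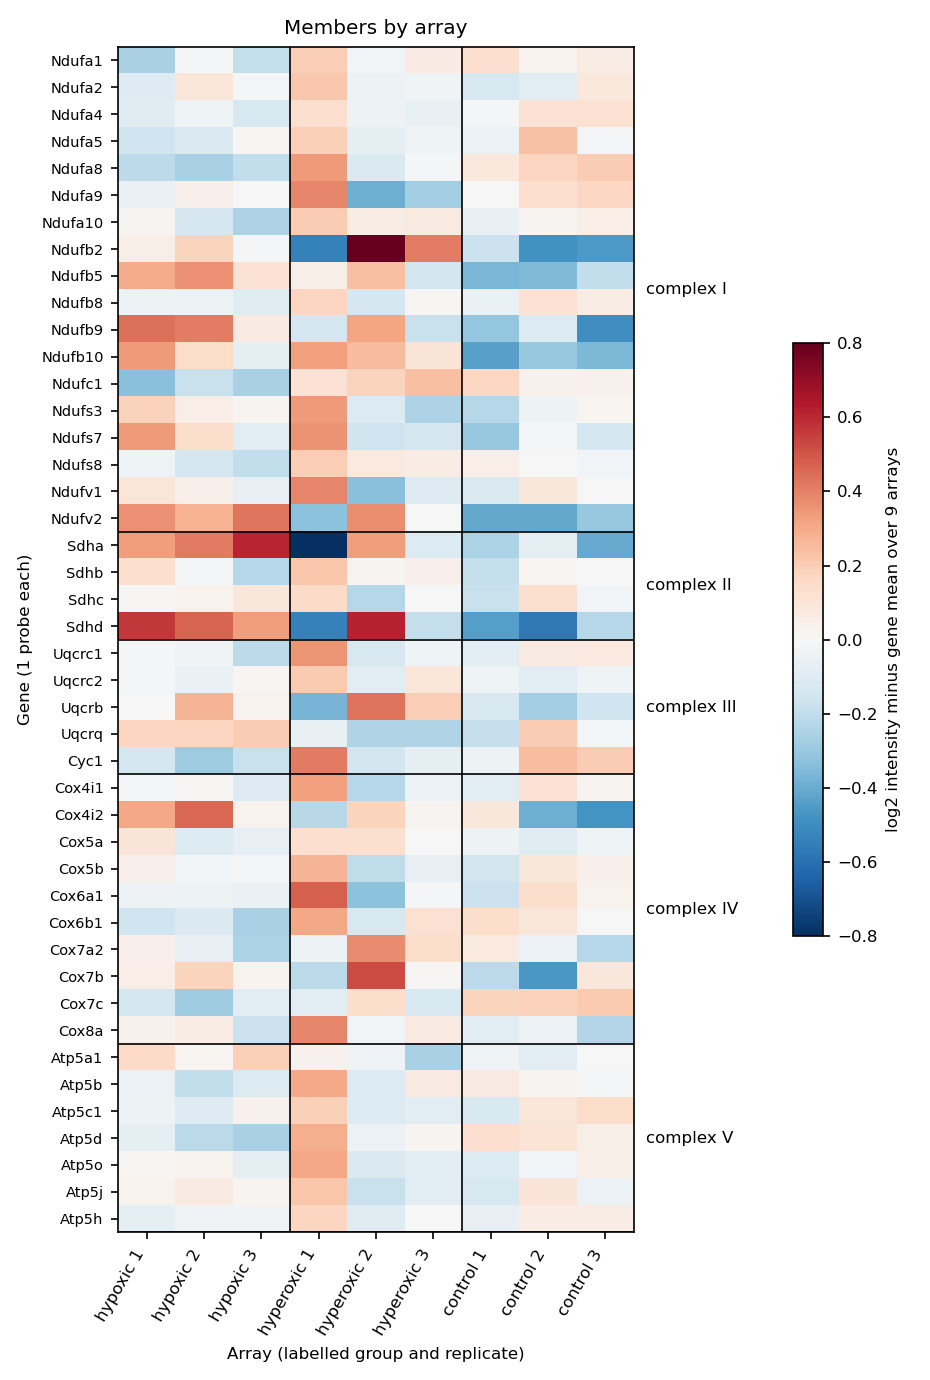
Log2 intensity of the 44 tested members (rows, by complex) on the 9 arrays (columns: hypoxic P12.5, hyperoxic P12, control P12), as the difference from each gene's mean over the 9 arrays; the colour scale stops at 0.8 either way. Hyperoxic 1 is the array on which 28 of the 44 members were highest, and Ndufc1 and Ndufa8 are low on all 3 hypoxic arrays.

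Hypoxic P12.5 was compared with all 6 P12 arrays first. 1 of 44 members passed on its chosen probe over all tested probes (limma, Benjamini-Hochberg adjusted p under 0.05), the complex I subunit Ndufc1, which fell. Among all 19620 probes 3.83% were called, 2.26% higher and 1.57% lower. A second probe of Atp5a1, given further on, passed too. Without adjustment 13 of 44 had a p under 0.05 (7 higher and 6 lower), where 21.7% of all probes did. The median log2 difference of the members was -0.03, against 0.02 over all tested probes. The 95% confidence interval of the difference lay within 1.5-fold in either direction for 36 of 44 members, against 68.5% of all probes. The hypoxic arrays did not overlap the 6 P12 arrays for 0 members that were higher and 4 that were lower (Ndufc1, Ndufa8, Ndufs8, Atp5d). Among all probes 14.0% did not overlap, either way. The lowest difference was -0.39 (Ndufc1) and the highest 0.68 (Sdhd and Sdha).

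The labelled groups were also compared with each other, and these comparisons share arrays. Hypoxic P12.5 against hyperoxic P12 gave 0 of 44 members called (1.70% of all probes were) and 6 with an unadjusted p under 0.05 (18.7% of all probes), with a member median of -0.07 against 0.05 over all probes. Hypoxic P12.5 against control P12 gave 0 of 44 (1.89% of all probes) and 11 with an unadjusted p under 0.05 (20% of all probes), with a median of 0.02 against -0.02. Hyperoxic P12 against control P12 gave 0 of 44, as over all probes (0.0%), and 3 with an unadjusted p under 0.05 (9.55%), with a median of 0.05 against -0.06. In hypoxic P12.5 against control P12, the 3 arrays of each group did not overlap for 10 members that were higher and 10 that were lower (37.8% of all probes, either way). That count was 1 higher and 5 lower against hyperoxic P12 (23.4%), and 7 higher and 1 lower in hyperoxic P12 against control P12 (14.1%).

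The count in hypoxic P12.5 against control P12 depended on whether the hyperoxic arrays entered the estimate of the spread. Fitted on the 6 arrays of these 2 groups alone, limma called 11 of 44 members (16.8% of all probes), 8 higher (Ndufb2, Ndufb5, Ndufb9, Ndufb10, Ndufv2, Sdha, Sdhd, Cox4i2) and 3 lower (Ndufa8, Ndufc1, Cox7c). Without hyperoxic 1, hypoxic P12.5 against all the remaining P12 arrays called 5 members (16% of all probes): Ndufb5, Ndufv2, Sdha and Sdhd higher and Ndufc1 lower. With that array left out, the differences depend on the labels in doubt, since each P12 group weighs equally. Hyperoxic P12 against control P12 without that array called Ndufb2, Ndufb10 and Ndufv2 higher (2.90% of all probes), and hypoxic P12.5 against hyperoxic P12 called Ndufb2 and Ndufc1 lower (10.2%). With the P12 arrays split by the authors' ratio reference in place of the labels, hypoxic P12.5 against the 3 arrays outside the reference called Ndufv2, Sdha, Sdhd and Cox4i2 higher and Ndufa8 and Cyc1 lower (6.26% of all probes). Against the 3 arrays of the reference, it called Uqcrq higher and Ndufc1 lower (9.04%). The arrays outside the reference against those inside it gave 0 members (3.99%) and 14 of 44 with an unadjusted p under 0.05, where 22.6% of all probes did. Sdha, where called in these fits, had passed the detection filter only through the hypoxic group, so its calls are not free of that selection.

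**Figure D2:**
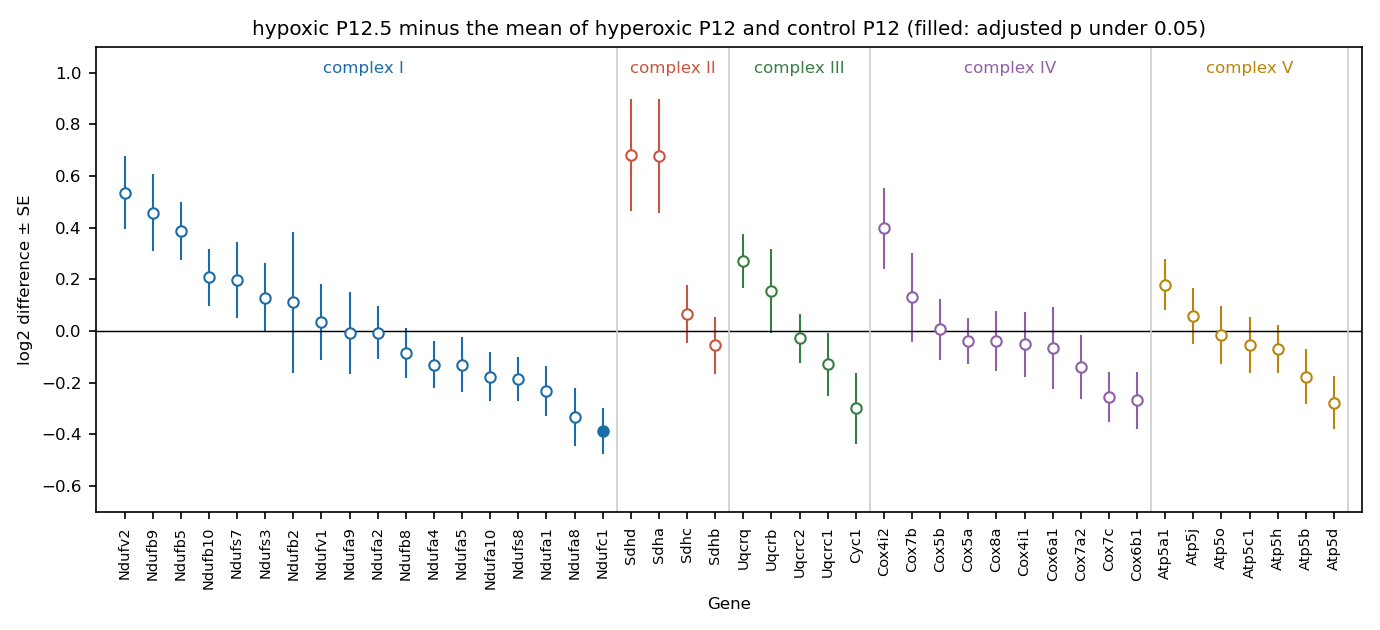
Log2 difference (± SE from limma) of hypoxic P12.5 from the mean of the 6 P12 arrays for the 44 tested members, ordered within each complex from highest to lowest. The filled point is Ndufc1 (-0.39), the 1 member whose chosen probe had an adjusted p under 0.05. Sdhd and Sdha (0.68 each) lie highest, and Sdha was tested only through the hypoxic arrays.

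Of the 19 genes placed with complex I, the NADH dehydrogenase, 18 were tested. Ndufa4, counted here as its name has it, differed by -0.13 ± 0.09 (SE) from all P12 arrays. Ndufs1, which carries iron-sulfur clusters, was detected on 0 arrays and is not described further. Ndufc1, a small accessory subunit of the membrane arm, had log2 intensities of 10.42, 10.58 and 10.49 in hypoxic P12.5, 10.87, 10.93 and 10.997 in hyperoxic P12 and 10.92, 10.79 and 10.79 in control P12. Every hypoxic array lay below every P12 array. The difference from all 6 P12 arrays was -0.39 ± 0.09 (SE; 0.765 times the P12 level, limma adjusted p = 0.0448). It was -0.44 ± 0.10 against hyperoxic P12 (adjusted p = 0.0673) and -0.34 ± 0.10 against control P12 (adjusted p = 0.113). Its call against all P12 arrays was lost in 10 of 17 alternatives, with adjusted p from 0.00208 to 0.879 over all of them. In the 7 of these that left out 1 array the difference was -0.43 to -0.35, and with the replicate number as a block it was -0.39. On the deposited ratios the difference was -0.11, with all probes at a median of 0.13. With arrays centred on their medians it was -0.09, with all probes at 0.24.

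The promoter window of Ndufc1 is printed because it is the member that passed the test, beside that of Sdhd, the member with the highest positive difference, so that both can be read against the motif counts given further on. Each window holds 250 bases before the gene's start and 50 after it, 5′ to 3′ on the gene's strand (RefSeq, GRCm38.p6). Ndufc1 lies at chr3:51408906-51409205, minus strand, and Sdhd at chr9:50603800-50604099, minus strand. Capitals mark matches to the 3 motifs searched.
Ndufc1: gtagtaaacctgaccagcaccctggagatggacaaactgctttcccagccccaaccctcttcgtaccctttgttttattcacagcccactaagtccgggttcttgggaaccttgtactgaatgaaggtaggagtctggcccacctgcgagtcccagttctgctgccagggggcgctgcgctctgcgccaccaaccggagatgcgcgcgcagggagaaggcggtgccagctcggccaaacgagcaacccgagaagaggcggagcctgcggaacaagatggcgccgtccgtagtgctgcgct
Sdhd: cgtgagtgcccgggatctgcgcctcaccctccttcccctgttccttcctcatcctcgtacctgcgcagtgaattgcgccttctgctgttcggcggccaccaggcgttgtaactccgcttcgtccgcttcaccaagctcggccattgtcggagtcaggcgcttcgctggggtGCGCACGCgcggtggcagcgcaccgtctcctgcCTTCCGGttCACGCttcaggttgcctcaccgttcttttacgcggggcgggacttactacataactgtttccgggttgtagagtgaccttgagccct

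Ndufv2, a flavoprotein-module subunit with an iron-sulfur cluster, went the other way. Its log2 intensities were 10.15, 10.06 and 10.21 in hypoxic P12.5, 9.46, 10.15 and 9.79 in hyperoxic P12 and 9.38, 9.37 and 9.48 in control P12. The hypoxic arrays lay above all control arrays and overlapped hyperoxic 2. The difference was 0.54 ± 0.14 from all P12 arrays (1.45-fold, adjusted p = 0.0644), 0.34 ± 0.16 from hyperoxic P12 and 0.73 ± 0.16 from control P12 (adjusted p = 0.0543). It did not pass here, and it passed in the fit of the hypoxic and control arrays alone (adjusted p = 0.00133).

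The accessory subunits of the distal membrane arm, named Ndufb, were not uniform. Ndufb5 had log2 intensities of 9.30, 9.38 and 9.12 in hypoxic P12.5, 9.05, 9.25 and 8.86 in hyperoxic P12 and 8.64, 8.66 and 8.81 in control P12. All hypoxic arrays were above all control arrays, and the difference from all P12 arrays was 0.39 ± 0.11 (adjusted p = 0.0837). Ndufb9 differed by 0.46 ± 0.15 (adjusted p = 0.112) and Ndufb10 by 0.21 ± 0.11 (adjusted p = 0.313) from all P12 arrays. Ndufb10 was the member of lowest p between the P12 groups: it averaged 10.48 ± 0.11 in hyperoxic P12 and 9.89 ± 0.06 in control P12 (SD, n = 3 each), with no overlap and a difference of 0.59 ± 0.13 (limma adjusted p = 0.458). With the P12 arrays split by the ratio reference, the arrays outside it differed from those inside it by -0.09 ± 0.22 for this gene, so its difference rests on the labels in doubt. Ndufb8 differed from all P12 arrays by -0.09 ± 0.10. Ndufb2, dim and detected on 8 of 9 arrays, had 5.06, 6.63 and 6.01 in hyperoxic P12, a spread of over 1.5 on the log2 scale, and 5.60 to 5.79 in hypoxic P12.5.

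Ndufa8, an accessory subunit with cysteine motifs, was lower on every hypoxic array than on every P12 array, at 9.39, 9.34 and 9.41 in hypoxic P12.5, 9.94, 9.49 and 9.58 in hyperoxic P12 and 9.68, 9.78 and 9.81 in control P12. The difference was -0.33 ± 0.11 (adjusted p = 0.124). Ndufs8, an iron-sulfur subunit of the arm that leads to ubiquinone, was likewise below every P12 array, at -0.19 ± 0.09 (adjusted p = 0.249). The X-linked Ndufa1 differed by -0.23 ± 0.10 (adjusted p = 0.198). In all, 8 of the 18 differences from all P12 arrays were positive and 10 negative, with a median of -0.01, and Ndufv1, the NADH-binding subunit, was at 0.04 ± 0.15.

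Complex II, succinate dehydrogenase, is the smallest complex and the one shared with the citric acid cycle. It has a flavoprotein (Sdha), an iron-sulfur protein (Sdhb) and a pair of membrane anchors (Sdhc, Sdhd), all measured here. Sdhd had log2 intensities of 8.55, 8.45 and 8.32 in hypoxic P12.5, 7.44, 8.60 and 7.79 in hyperoxic P12 and 7.55, 7.41 and 7.76 in control P12. The hypoxic arrays were above all P12 arrays but hyperoxic 2, which was highest. The difference was 0.68 ± 0.22 from all P12 arrays (1.60-fold, adjusted p = 0.107), 0.49 ± 0.25 from hyperoxic P12 and 0.87 ± 0.25 from control P12 (adjusted p = 0.102).

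Sdha had 5.72, 5.80 and 6.00 in hypoxic P12.5, 4.53, 5.72 and 5.28 in hyperoxic P12 and 5.14, 5.32 and 4.98 in control P12. The hypoxic arrays lay above the control arrays and above all P12 arrays except for hyperoxic 2, which equalled hypoxic 1. The probe is dim: it was detected on all 3 hypoxic, 2 hyperoxic and 2 control arrays, so it was tested only through the hypoxic group. The difference from all P12 arrays was 0.68 ± 0.22 (adjusted p = 0.113). It was 0.30 without background correction and 0.38 on the deposited ratios, and the probe was not among those tested with a stricter detection filter. For Sdhd these settings gave 0.52, 0.76 and 0.68. Sdhb and Sdhc showed no such difference, at -0.06 ± 0.11 and 0.07 ± 0.11, with 95% intervals of -0.30 to 0.19 and -0.18 to 0.32. Complex II had a median of 0.37 over its 4 members, against -0.01 in complex I, -0.03 in complex III and -0.05 in both complex IV and complex V. That median rests on the 2 higher members and 4 probes in all, and no test of it was made. Sdha is 1 of these 2 and was tested only through the hypoxic group, so the median is not free of that selection. Sdhb, Sdhc and Sdhd were at -0.06, 0.07 and 0.68.

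Complex III, which hands electrons to cytochrome c, had 5 of 6 members tested. Uqcrfs1, the Rieske iron-sulfur protein, was detected on 1 array, hyperoxic 1, and was not tested. Cyc1, the cytochrome c1 heme protein, had log2 intensities of 10.56, 10.41 and 10.52 in hypoxic P12.5, 11.11, 10.55 and 10.62 in hyperoxic P12 and 10.65, 10.94 and 10.90 in control P12. The hypoxic arrays were below the control arrays and overlapped hyperoxic 2 by a small margin. The difference from all P12 arrays was -0.30 ± 0.14 (0.813 times, adjusted p = 0.242). Uqcrq, a small subunit next to cytochrome b, had 8.82, 8.82 and 8.85 in hypoxic P12.5, 8.59, 8.41 and 8.41 in hyperoxic P12 and 8.46, 8.85 and 8.64 in control P12. It was above all hyperoxic arrays and overlapped the control arrays, at 0.27 ± 0.11 from all P12 arrays (adjusted p = 0.172). The core proteins Uqcrc1 and Uqcrc2 were at -0.13 ± 0.12 and -0.03 ± 0.09, and Uqcrb at 0.15 ± 0.16.

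Complex IV, cytochrome c oxidase, holds the pair of subunit 4 isoforms. Cox4i1, the usual isoform, had log2 intensities of 13.30, 13.32 and 13.20 in hypoxic P12.5, 13.63, 13.08 and 13.26 in hyperoxic P12 and 13.22, 13.42 and 13.33 in control P12. The groups overlapped fully, and the difference from all P12 arrays was -0.05 ± 0.13 (95% interval -0.33 to 0.23, adjusted p = 0.846). Its sign was positive on median-centred arrays (0.28) and on the deposited ratios (0.26), where all probes moved to 0.24 and 0.13. Cox4i2, the isoform known in cultured cells to increase in low oxygen, had 7.85, 8.005 and 7.58 in hypoxic P12.5, 7.32, 7.72 and 7.57 in hyperoxic P12 and 7.64, 7.16 and 7.07 in control P12. Its groups overlapped as well. The difference was 0.40 ± 0.16 from all P12 arrays (1.32-fold, 95% interval 0.05 to 0.75, adjusted p = 0.177), 0.27 ± 0.18 from hyperoxic P12 and 0.52 ± 0.18 from control P12 (adjusted p = 0.153). The difference between these isoforms in their response was not tested.

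Cox7c, a small subunit, had log2 intensities of 12.37, 12.23 and 12.42 in hypoxic P12.5, 12.42, 12.65 and 12.39 in hyperoxic P12 and 12.69, 12.70 and 12.72 in control P12. On this probe the hypoxic and the hyperoxic arrays all lay below the control arrays. The difference was -0.25 ± 0.10 from all P12 arrays (limma adjusted p = 0.163) and -0.36 ± 0.11 from control P12 (limma adjusted p = 0.119). Hyperoxic P12 differed from control P12 by -0.21 ± 0.11. On a second Cox7c probe, nearly as intense, the hyperoxic and control arrays overlapped (-0.04 ± 0.11). There every hypoxic array lay below every P12 array, at -0.34 ± 0.10 (limma adjusted p = 0.0792). Cox6b1, which faces the intermembrane space, was at -0.27 ± 0.11 from all P12 arrays (adjusted p = 0.195) and overlapped. The 6 remaining members lay between -0.14 (Cox7a2) and 0.13 (Cox7b). Cox7b was detected on 7 of 9 arrays, and on all 3 of a group only in hypoxic P12.5.

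Complex V, ATP synthase, had all 7 members tested. Their chosen probes ranged from -0.28 to 0.18, and for all 7 of these the 95% interval lay within 1.5-fold; a second probe of Atp5a1, given further on, lay outside that range. Atp5d, a subunit of the central stalk, had log2 intensities of 10.93, 10.79 and 10.74 in hypoxic P12.5, 11.29, 10.95 and 11.03 in hyperoxic P12 and 11.14, 11.11 and 11.05 in control P12. All hypoxic arrays were below all P12 arrays, by a mean of -0.28 ± 0.10 (adjusted p = 0.153). Atp5b, the catalytic beta subunit, was at -0.18 ± 0.11. Atp5a1, the alpha subunit, had 9.89, 9.75 and 9.93 in hypoxic P12.5, 9.77, 9.71 and 9.48 in hyperoxic P12 and 9.71, 9.65 and 9.73 in control P12, a difference of 0.18 ± 0.10 (adjusted p = 0.323). The hypoxic arrays were above the control arrays by a small margin and overlapped the hyperoxic ones.

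**Figure D3:**
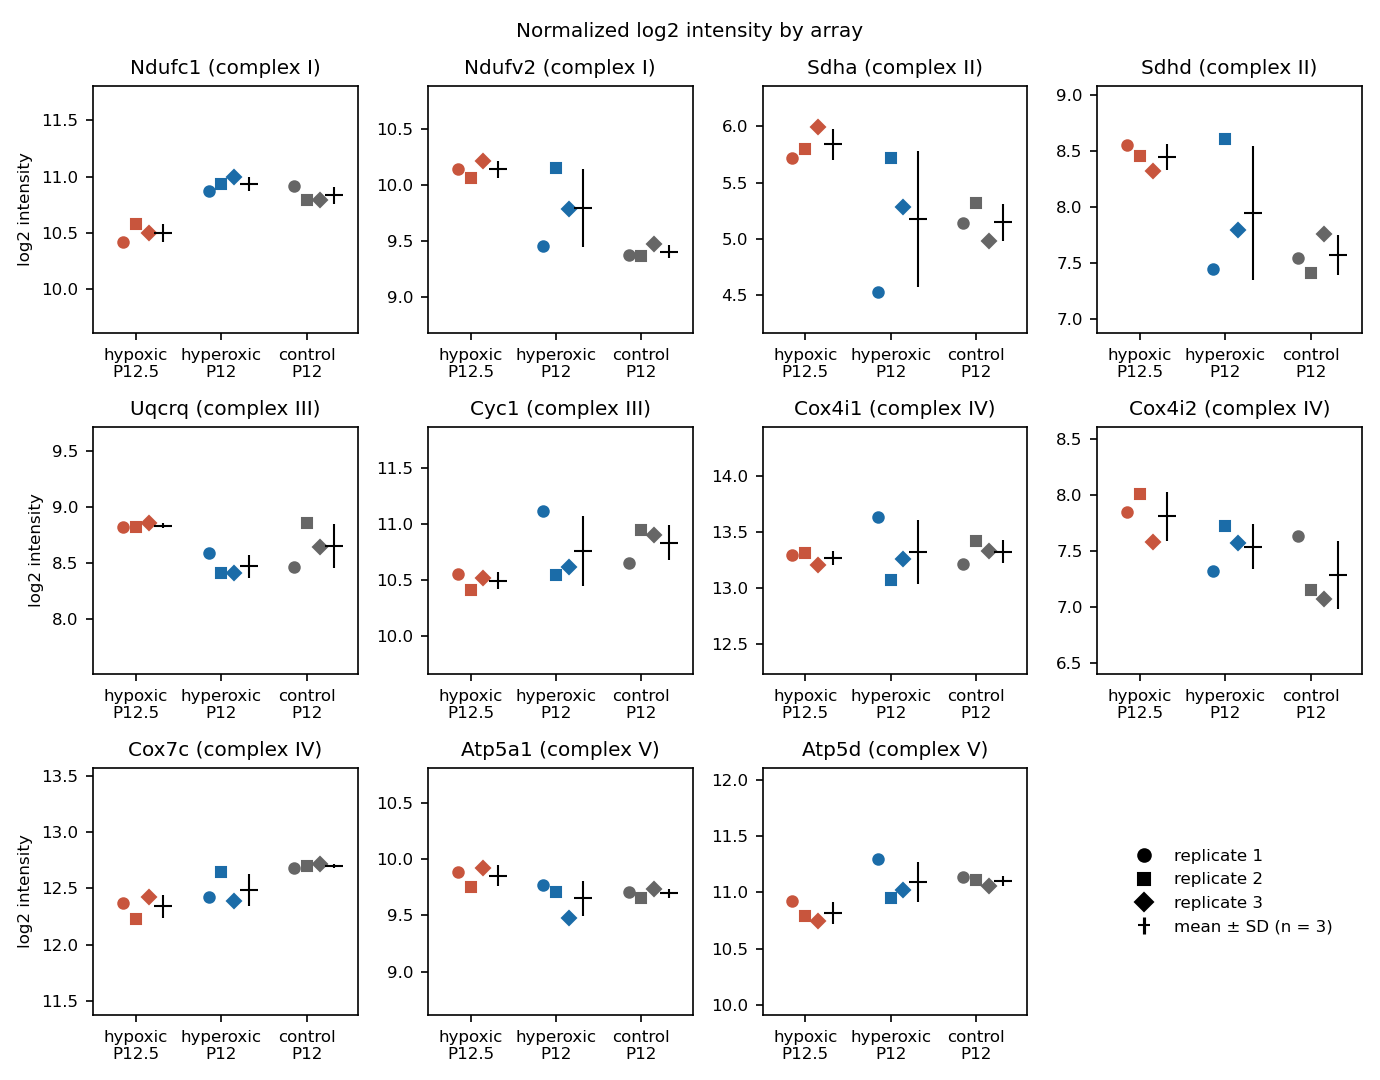
Log2 intensity of 11 members on each array (points; the marker shape gives the replicate) with the mean ± SD of each group (n = 3), all panels spanning the same 2.2 log2 units. Ndufc1 is below all P12 arrays on the 3 hypoxic arrays, whereas Sdha and Sdhd spread widely in hyperoxic P12.

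Some members had 2 tested probes, and these did not always match. Of 9 such genes, 7 had the same sign in hypoxic P12.5 against all P12 arrays and 2 (Ndufa5 and Ndufs3) had opposite signs. The counts were also 7 and 2 against each P12 group, but in hyperoxic P12 against control P12 the probes of 2 genes had the same sign and those of 7 had opposite signs. The clearest case was Atp5a1. Its dimmer probe had log2 intensities of 9.24, 9.46 and 9.42 in hypoxic P12.5, 8.46, 9.35 and 8.71 in hyperoxic P12 and 7.94, 8.29 and 8.001 in control P12. This probe passed against all P12 arrays (0.91 ± 0.18, adjusted p = 0.0292) and against control P12 (1.30 ± 0.21, adjusted p = 0.0195), while the more intense probe gave 0.18 and 0.16. The dimmer probe is annotated to a RefSeq transcript and the more intense one to a cDNA clone. With probes averaged per gene, Atp5a1 was called against all P12 arrays (0.55 ± 0.11, limma adjusted p = 0.0304). It was also called against control P12 (0.73 ± 0.13, limma adjusted p = 0.025). The dimmer probe of Ndufa5 was at 0.72 ± 0.25 (adjusted p = 0.138), against -0.13 ± 0.11 for the more intense one.

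The sign of a member's difference went with the brightness of its probe. Of the 5 members with a mean log2 intensity under 8, all 5 had a positive difference from all P12 arrays. Their median was 0.40, where all tested probes of that range had a median of 0.03. Among these 5, Sdha and Cox7b were detected on all 3 arrays of hypoxic P12.5 only. They were tested through that group alone, so their sign is not free of that selection. From 8 to 10 the median of 9 members was 0.18 and 7 were positive, against -0.01 for all probes. From 10 to 11.5 the 13 members had a median of -0.04 (4 positive), and at 11.5 and over the 17 members had a median of -0.07 (2 positive), against -0.00 and -0.02 for all probes. Across the 44 members Pearson's r of level and difference was -0.59 (Spearman's coefficient -0.50), against -0.09 (-0.11) across all tested probes. Between the P12 groups the members showed a like pattern: in hyperoxic P12 against control P12, r was -0.48 across members and 0.15 across all probes, and all 5 dim members were positive (median 0.30). These points share the same arrays and genes are not independent replicates, so r is a description. Brightness of different probes does not rank the genes by abundance, and its part in the differences was not tested.

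**Figure D4:**
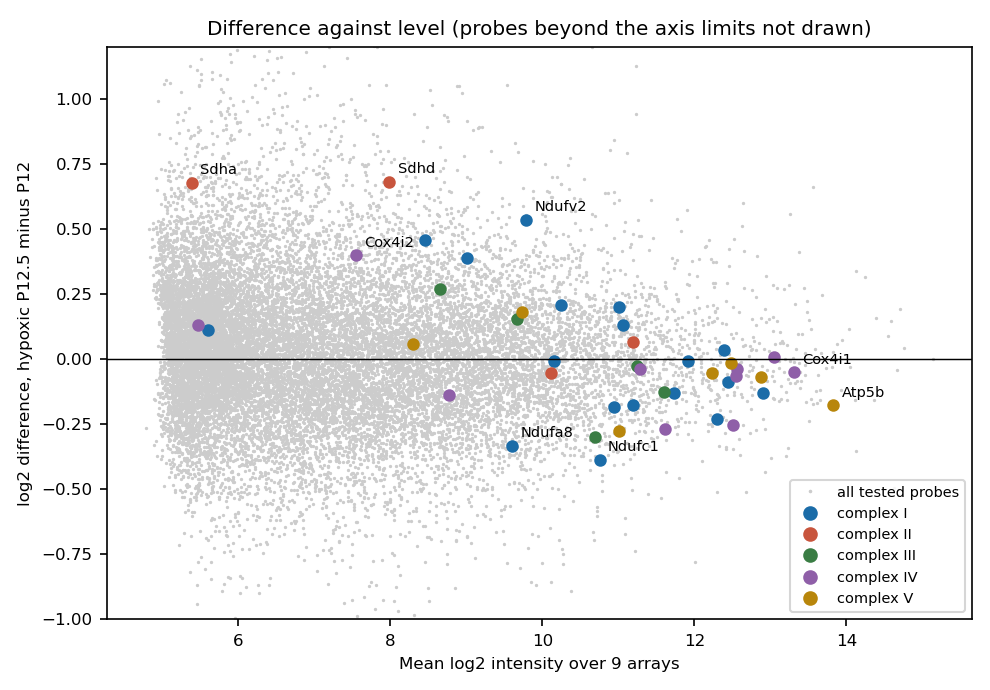
Log2 difference of hypoxic P12.5 from all 6 P12 arrays (vertical) against mean log2 intensity over 9 arrays (horizontal) for the 44 members (coloured by complex) and all tested probes (grey). The members under 8 lie above 0 (5 of 5), and 2 of the 17 members at 11.5 and over do. Sdha and Cox7b, among those under 8, were tested only through the hypoxic arrays.

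Promoter windows were available for 35 of the 46 members (39 windows, RefSeq, GRCm38.p6). Searched on both strands were the core of the HIF site (ACGTG or GCGTG), the core of the ETS site bound by GABP (CCGGAAG) and the core of the NRF-1 site (GCGCANGC); GABP and NRF-1 are known activators of respiratory chain genes. The HIF core was in 61.5% of the member windows, against 60% of the windows of all tested genes and 43.8% of all windows. The ETS core was in 23.1%, against 15.9% and 8.86%, and the NRF-1 core in 30.8%, against 18.4% and 9.95%. The Ndufc1 window held none of these. The Sdhd window held the HIF core word CACGC 76 and 37 bases before the start, the ETS word CTTCCGG at 46 and the NRF-1 word GCGCACGC at 79, which overlaps the first HIF word. A match is a description of letters and says nothing of binding.

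Other mitochondrial genes were listed for comparison. Of 28 tested subunits of the same complexes that are not among the 46, 0 were called in hypoxic P12.5 against all P12 arrays (3.83% of all probes were). Their median was -0.06. The ATP synthase subunit Atp5k had the lowest p, at 1.29 ± 0.31 (limma adjusted p = 0.0523). Next was the complex I subunit Ndufc2, at 0.43 ± 0.12 (limma adjusted p = 0.0694). Ndufc2 was dim and detected on 3 hypoxic, 1 hyperoxic and 0 control arrays, so it was tested only through the hypoxic group. Of 4 tested isoforms restricted to other tissues 0 were called. The 7 tested genes of the mitochondrial genome had a median of 0.41 and 6 were positive, with 0 called. Without hyperoxic 1, a setting chosen after seeing the data, their median was 0.26, against 0.02 for the 44 members. The labels in doubt enter these medians, since each P12 group weighs equally without that array. One of the 6, mt-Nd4, was the probe of rank 6 by intensity on all 3 hypoxic arrays, hyperoxic 3 and control 3, to which quantile normalization gave the same value, so its difference of 0.09 carries only ranks; of the other 6 genes 5 were positive. The complex IV core gene mt-Co2 was at 13.03, 13.17 and 12.93 in hypoxic P12.5, 11.73, 13.16 and 12.93 in hyperoxic P12 and 12.38, 12.03 and 12.43 in control P12, and differed from all P12 arrays by 0.60 ± 0.27 (adjusted p = 0.233). Hyperoxic 1 was the lowest array for it, whereas it was the highest for 28 of the nuclear members.

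Of 37 tested assembly factors 1 rose and 3 fell in hypoxic P12.5 against all P12 arrays, where 3.83% of all probes were called. Cox20, which handles a newly made complex IV core subunit, rose by 0.65 ± 0.12 (adjusted p = 0.0246). Bcs1l, which inserts the Rieske protein into complex III, was at -0.57 ± 0.11 (adjusted p = 0.0249), the complex I assembly factor Acad9 at -0.44 ± 0.09 (adjusted p = 0.0332) and the complex IV factor Coa3 at -0.46 ± 0.10 (adjusted p = 0.0349). Of 14 regulators of mitochondrial biogenesis 0 were called; the lowest p-values were those of Ppargc1b (-0.29 ± 0.10), Polg (0.38 ± 0.13) and Tfam (0.28 ± 0.10). Of 13 genes of pyruvate oxidation and the citric acid cycle 1 was called, the pyruvate dehydrogenase subunit Pdhb, which rose by 0.58 ± 0.12 (adjusted p = 0.0298).

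Of 9 tested hypoxia-linked genes that act on mitochondria 2 were called, both higher (3.83% of all probes were called, either way). Pdk1, the kinase that shuts pyruvate dehydrogenase, had log2 intensities of 8.24, 8.06 and 8.30 in hypoxic P12.5, 6.58, 6.81 and 6.59 in hyperoxic P12 and 7.11, 7.30 and 7.28 in control P12. All hypoxic arrays were far above all P12 arrays, and it rose by 1.25 ± 0.10 (adjusted p = 0.000581). Bnip3l, a mitophagy receptor, rose by 0.64 ± 0.13 (adjusted p = 0.0321). Higd1a, which is also on the list of assembly factors, and Mxi1 were at 1.08 ± 0.28 and 0.86 ± 0.22 (adjusted p = 0.0633 and 0.0621). Lonp1, the protease known in cultured cells to degrade COX4I1 in low oxygen, was at 0.44 ± 0.14 (adjusted p = 0.101).

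**Figure D5:**
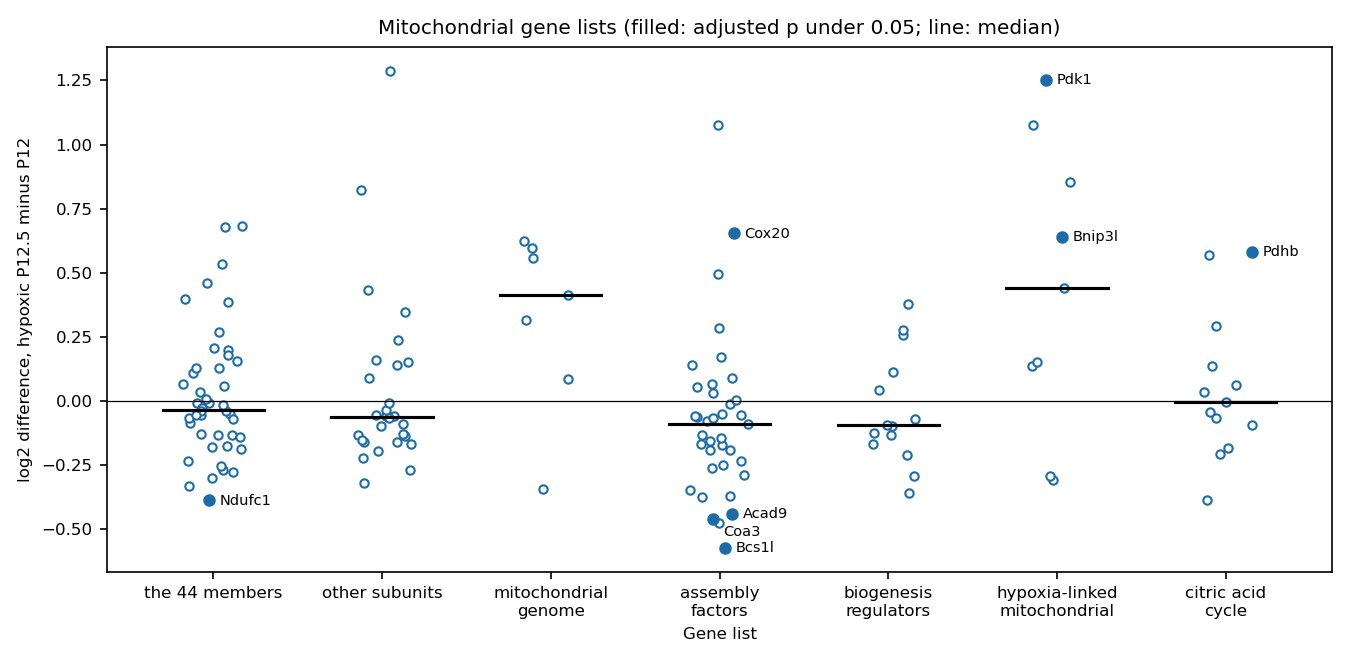
Log2 difference of hypoxic P12.5 from all 6 P12 arrays for the 44 members and 6 other lists of mitochondrial genes (points: genes; line: list median; filled: limma adjusted p under 0.05). The line of the 44 members lies at -0.03 and that of the 7 mitochondrial genome genes at 0.41 (0.02 and 0.26 without hyperoxic 1), and Pdk1 (1.25) is the highest filled point.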

How the data were processed

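The authors deposited a raw table of probe intensity on a linear scale, treated as neither background-corrected nor normalized, with a detection p-value per probe and array as the deposited header names it. 5 detection columns followed another array than the one beside them and were used with the array they followed. The authors also deposited a linear ratio per probe and array, used as an alternative. The sources used here name no scanner software or build.

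Intensities were processed with neqc (limma 3.58.1, R 4.3.3; normexp background, offset 16, quantile normalization, log2). Tested were the 19620 of 46613 probes whose detection p was under 0.05 throughout 1 or more groups. 1 model with a mean per labelled group took all 9 arrays, with two-sided contrasts and Benjamini-Hochberg adjustment over all tested probes; all adjusted p-values come from limma. 32781 probes had 1 gene symbol, 55 several and 13777 none. The fit was also run on simulated data with normal noise, no outlying array and correct labels. That run does not speak to hyperoxic 1 or to the labels in doubt. The number of arrays limits the precision, and the offset shrinks differences of dim probes.

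The members, lists and tests were chosen with earlier results of these data known. Values are given for members called in any comparison, for the 2 of lowest p in each complex in comparisons with P12.5, and for Cox4i1, Cox4i2, Sdhd and Cyc1; of other lists, for called genes and up to 4 of lowest p. The other members with values were chosen after their values were seen. Alternatives covered background, scaling, filter, probe choice, array weights, replicate block, left-out arrays, samples in the fit and the P12 grouping. Sex and scan batch were not tested.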

Additional observations from a re-analysis of the deposited data

How the results depend on the processing

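The count of called members moved by over 1.5 times, or away from 0, in 16 of 17 alternatives for hypoxic P12.5 against all P12 arrays, in 6 of 16 against each P12 group and in 2 of 16 between the P12 groups; for called probes it did in 13, 12 (hyperoxic P12), 14 (control P12) and 4. The member median moved by over 0.0865, the pooled SD of the array medians within groups, in 2 alternatives of each comparison. Within that tolerance its sign changed: against all P12 arrays (-0.03) it was 0.01 with array weights and 0.02 without hyperoxic 1, between the P12 groups (0.05) -0.0045 with array weights, and against control P12 (0.02) -0.02 without control 1. For hypoxic P12.5 against all P12 arrays (1 member, 752 probes) the counts were 3 and 1100 without background correction, 3 and 1088 with the stricter filter, 2 and 641 with probes averaged, 16 members and 5310 probes with array weights, 0 and 257 with median centring, and 0 and 26 on the deposited ratios. For hypoxic P12.5 against hyperoxic P12 (0 members, 333 probes) they were 1 and 490 without background correction, 1 and 450 with the stricter filter, 11 and 5289 with array weights, 185 probes with median centring, 21 on the ratios, 190 with no filter, 109 with the compared groups alone, and 6 and 1229 under the P12 grouping by the ratio reference. For hypoxic P12.5 against control P12 (0 members, 371 probes) they were 4 and 694 without background correction, 5 and 764 with the stricter filter, 1 and 316 with probes averaged, 13 and 4061 with array weights, 11 and 3293 with the compared groups alone, 42 probes with median centring, 14 on the ratios, and 2 and 1774 under the P12 grouping. Between hyperoxic P12 and control P12 (0 and 0) they were 5 and 2680 with array weights, and 783 probes under the P12 grouping.

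Leaving out single arrays gave 0 to 6 members and 69 to 3131 probes for hypoxic P12.5 against all P12 arrays, 0 to 2 and 49 to 2006 against hyperoxic P12, 0 members and 18 to 52 probes against control P12, and 0 to 3 and 0 to 568 between the P12 groups; the highest counts came without hyperoxic 1, except the 6 members, which came without hyperoxic 2, and the comparison with control P12, which does not use that array. The call of Ndufc1 was lost without any 1 control array, any 1 hypoxic array or hyperoxic 3, at differences of -0.43 to -0.35. The member median against all P12 arrays was 0.26 with median centring and 0.24 on the ratios; against hyperoxic P12 it was 0.26 and 0.35, and against control P12 0.28 and 0.14. Between the P12 groups it was -0.22 on the ratios and ranged from -0.06 to 0.12 over the left-out arrays. These scalings moved the median of all probes too, to as much as 0.31, so that the members less all probes stood at 0.02 and 0.11 against all P12 arrays. Cox4i1 turned positive with median centring (0.28), on the ratios (0.26) and without hyperoxic 1 (-0.113 to 0.0262 over the left-out arrays), Cox7c with median centring (0.0639) and on the ratios (0.0419), and Atp5d with median centring (0.0076).

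The replicate numbers did not pair the arrays (r of deviations -0.339 to 0.105 over 9 same-numbered pairs). With the number as a block, 0 members and 182 probes were called in hypoxic P12.5 against all P12 arrays (Ndufc1 adjusted p = 0.119), 127 probes against hyperoxic P12 and 42 against control P12. The cause of these shifts was not tested.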
